A study of Homo sapiens with 12 samples.

Results

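The enzyme complexes of oxidative phosphorylation are assembled from many nuclear-encoded subunits, and their transcripts were followed in Caco-2 cells transfected with a SIRT1 plasmid or with SIRT1 siRNAs. Members were taken by gene symbol: NDUFA, NDUFB, NDUFC, NDUFS and NDUFV genes for complex I, SDH genes for complex II, UQCR genes for complex III, COX4I to COX8 genes for complex IV and ATP5 genes for complex V. Assembly factors and pseudogenes were left out. This gave 83 genes on the array, of which 74 were detected on at least 2 arrays and tested, out of 11458 genes tested in all. They comprised 34 genes of complex I, 3 of complex II, 8 of complex III, 11 of complex IV and 18 of complex V.

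Caco-2 is a human colorectal adenocarcinoma line that serves as a model of gut epithelium, and all cells were grown in DMEM with fetal calf serum. In the plasmid experiment, 3 arrays came from cells transfected with the SIRT1 construct pCMV-ENTRY Sirt1 and 3 from cells given the pCMV-Neo plasmid as negative control, here called the vector control. In the siRNA experiment, 2 arrays each came from cells given a low-GC scrambled siRNA, a first SIRT1 siRNA (KD1) or a second SIRT1 siRNA (KD2) that does not overlap the first, and these cells were lysed after 72 h. In the labels KD2 has replicates 2 and 3, whereas the other siRNA groups have 1 and 2. The series describes the samples of a group as biological replicates, and p-values measure the spread between these samples alone. Neither the share of cells that took up a plasmid or an siRNA nor the lysis time after plasmid transfection is given in the sources used.

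The respiratory chain in the inner mitochondrial membrane passes electrons from NADH (complex I) or succinate (complex II) through ubiquinone, complex III and cytochrome c to oxygen at complex IV, and complex V uses the proton gradient so made to synthesise ATP. Most subunits are encoded in the nucleus, and their genes are classic targets of the transcription factors NRF1 and NRF2 (GABP) together with the coactivator PGC-1 alpha, which SIRT1 deacetylates. Enterocytes rely on this system for the ATP that drives ion and nutrient transport.

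Each array detected 15345 to 17981 probes (32.5% to 38.1%). Of 10 epithelial markers on the array, 8 were detected on every array, among them EPCAM, CDH1, VIL1 and CDX2, and LGALS4 on none. Markers of other cell types were partly detected. Every array detected 6 of 9 fibroblast markers and 2 of 8 leukocyte markers (CD14 and CD68). The same held for 1 of 7 striated muscle markers (ACTA1) and 0 of 5 endothelial markers. PTPRC, CD3E, CDH5, VWF, MYH7 and CKM were among those detected on no array. SIRT1 itself stood at a log2 level of 8.58 and 8.88 in the scrambled controls, 7.35 and 7.33 with KD1 and 7.87 and 7.18 with KD2. It fell by 1.39 with KD1 (SE 0.22, limma adjusted p = 0.0472) and stood at -1.21 with KD2 (SE 0.22, adjusted p = 0.0507). The mean of both siRNAs was -1.30 (SE 0.19, adjusted p = 0.0258). The KD1 call was lost without any 1 of the 10 arrays other than those of KD2, with adjusted p between 0.0687 and 0.362. With the plasmid the SIRT1 probe differed from the vector control by -0.0033 (SE 0.18, adjusted p = 1), so no rise in SIRT1 RNA was detected, and whether the probe reads the transfected sequence was not tested. One library stood apart from its group: KD1 replicate 1 was nearest to a SIRT1 plasmid array (r = 0.99 across genes) and had a mean r of 0.987 with the plasmid arrays against 0.982 with the other siRNA arrays. The members' medians with KD1, and the genes furthest from 0 between the siRNAs, are given with and without it.

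No subunit gene differed detectably between SIRT1 plasmid and vector control, nor between either SIRT1 siRNA and the scrambled siRNA. The only members past the threshold, an adjusted p below 0.05 over all 11458 genes, were NDUFA7 of complex I and UQCRQ of complex III, both lower with KD2 than with KD1. Between the scrambled siRNA and the vector control no single member passed, but 55 of 74 members were lower with the scrambled siRNA, complex I most often. All values are on a log2 intensity scale. Because arrays report bulk RNA at an equalised total, fewer cells of a kind and less RNA per cell cannot be told apart.

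Each sample's mean over the 74 members, after each gene was centred on its own mean over all arrays, lay within a narrow band. In the vector control these scores were 0.06, 0.06 and 0.01, and with the SIRT1 plasmid 0.08, 0.04 and 0.04. They were -0.04 and -0.09 with the scrambled siRNA, 0.08 and -0.07 with KD1, and -0.06 and -0.10 with KD2. All 6 plasmid arrays were above 0 and 5 of the 6 siRNA arrays below it, KD1 replicate 1 being the exception. The complex I score followed the same order, at 0.09, 0.10 and 0.03 in the vector control and -0.05 and -0.14 with the scrambled siRNA. It was 0.10 and -0.08 in the KD1 arrays. The complex IV score lay between -0.04 and 0.06 on every array.

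**Figure D1:**
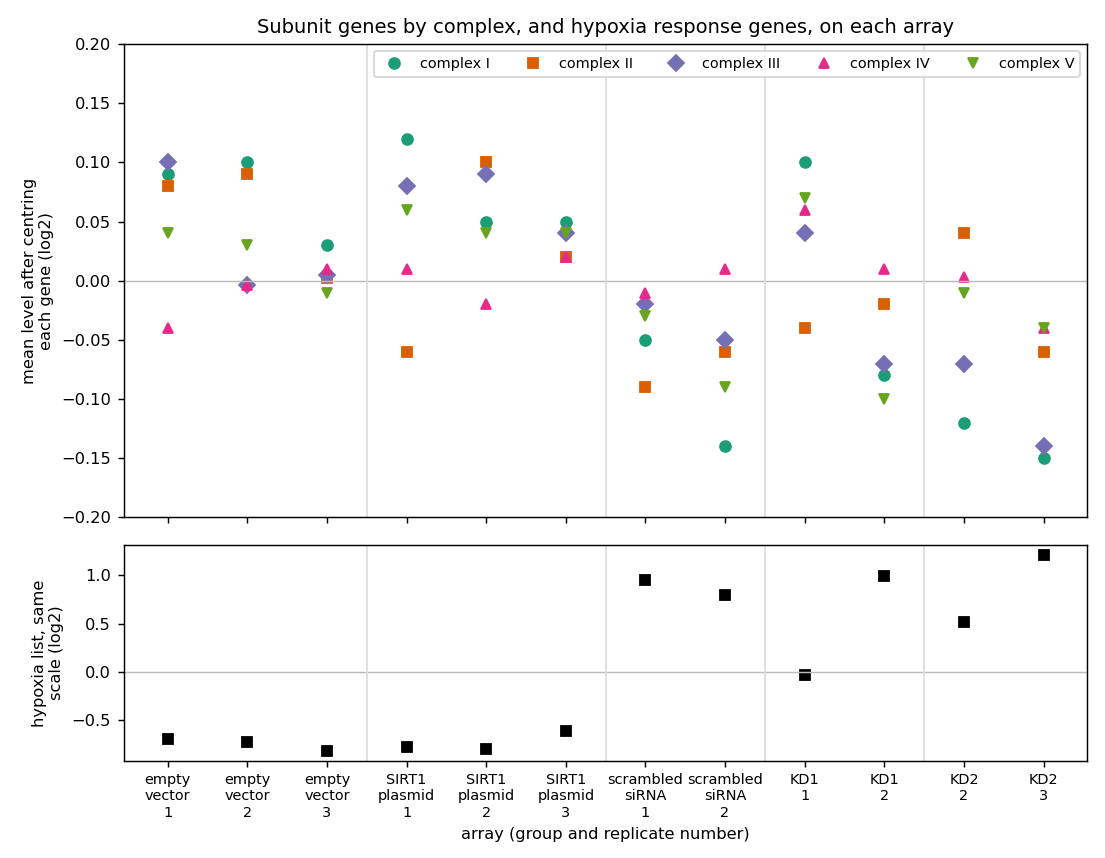
Upper panel, mean log2 level of the subunit genes of each complex on each of the 12 arrays after centring each gene on its own mean; lower panel, the same for 27 hypoxia response genes, on a wider axis. Complex I lies between 0.03 and 0.12 on the plasmid arrays and at 0.10 on KD1 replicate 1, and between -0.15 and -0.05 on the other siRNA arrays, while the hypoxia genes run the other way.

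A list of 27 tested hypoxia response genes, known targets of the HIF transcription factors, moved with the same arrays. Its score was -0.82 to -0.62 on the plasmid arrays, 0.95 and 0.80 with the scrambled siRNA, -0.03 and 0.99 with KD1, and 0.52 and 1.21 with KD2. The lowest siRNA array for the hypoxia genes, KD1 replicate 1, was the highest siRNA array for the subunit genes. Within KD1, 56 of the 74 members (75.7%) were higher on replicate 1 than on replicate 2, against 54.3% of all genes, with a median difference of 0.13 for the members and 0.03 for all genes. The hypoxia score was therefore also entered as a covariate, and its part in the subunit levels was not tested otherwise.

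The members differed in how much they moved at all. Over the 12 arrays the median range of a member was 0.52, with COX6B1, COX5A and UQCRH at 0.18 and NDUFV3 at 1.90. By complex the median range was 0.55 for complex I, 0.68 for complex II, 0.62 for complex III, 0.32 for complex IV and 0.51 for complex V. The genes with wide ranges included probes near the detection limit: NDUFV3 was detected on 10 arrays, NDUFC2 on 11, NDUFB1 on 8 and NDUFB4 on 2. For such genes the range includes the noise of dim probes, and NDUFB4, just inside the detection filter, gave no fold change that can be read. NDUFA5, just outside it, was detected on 1 array.

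The isoforms present were the housekeeping ones. Of the paired complex IV genes, COX4I1, COX6A1, COX6B1, COX7A2, COX7B and COX8A were detected on all 12 arrays. Their tissue-restricted counterparts COX4I2 (lung), COX6A2 and COX7A1 (heart and muscle) and COX6B2, COX7B2 and COX8C (testis) were detected on none. COX4I1 stood at 13.49 ± 0.08 (SD, n = 3) in the vector control, 13.49 ± 0.05 (n = 3) with the SIRT1 plasmid, 13.37 ± 0.05 (n = 2) with the scrambled siRNA, 13.46 ± 0.01 (n = 2) with KD1 and 13.42 ± 0.05 (n = 2) with KD2. No switch between COX4I1 and COX4I2, which hypoxia is known to drive in other cells, could be seen, since COX4I2 was below detection in the groups with high and with low hypoxia scores alike. The genes ATP5MC1, ATP5MC2 and ATP5MC3, which encode the same mature ring subunit of complex V, were all detected on every array. The NDUFS6 probe and the probe of NDUFB2-AS1, an antisense transcript caught by the symbol rule and no subunit, were detected on no array.

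The plasmid comparison set cells given the SIRT1 construct against vector control cells, and on these arrays SIRT1 RNA itself showed no detectable rise (-0.0033, SE 0.18). Limma called 0 of 74 members, with 0% of all genes called, and 0 members had an unadjusted p under 0.05 against 3.53% of all genes. The median log2 fold change was 0.01 for the members and 0.01 for all genes, with 41 members above 0 (55.4%, against 54.8% of all genes), and the members' median turned to -0.05 when arrays were scaled without quantiles. The groups did not overlap in 1 member that was lower, where this held for 3.26% of all genes, and in 4 that were higher, where it held for 5.13%. The member furthest below 0 was NDUFC2, a membrane arm subunit of complex I, at 6.63, 7.12 and 6.69 in the vector control and 6.28, 6.54 and 6.33 with the plasmid. These groups do not overlap, but the change of -0.43 (SE 0.21, 95% interval -0.90 to 0.04, adjusted p = 1) did not pass. COX6C, a small complex IV subunit, stood at 0.28 (SE 0.14, 95% interval -0.02 to 0.58), and NDUFB1 at 0.32 (SE 0.23) with detection on 1 of 3 vector arrays and 2 of 3 plasmid arrays. In complexes II, III and V the highest and lowest members lay between -0.09 and 0.19. For 65 of the 74 members the 95% interval of the change lay within 0.5 of 0, and for all 74 within 1.

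The first siRNA, KD1, was compared with the scrambled siRNA. Limma called 0 of 74 members, where 0.175% of all genes were called, and 2 members had an unadjusted p under 0.05 (2.7%, against 9.19% of all genes). The members' median was 0.06 against -0.01 for all genes, and 54 members (73%) lay above 0 against 49.1% of all genes. Scaling without quantiles gave 0.17 with 65 of 74 above 0, where the median of all genes was 0.04, and the hypoxia covariate gave 0.03 with 42 of 74. By complex the median was 0.07 for complex I, 0.14 for complex II, 0.03 for complex III, 0.04 for complex IV and 0.05 for complex V. This median rests on single arrays: it was -0.01 without KD1 replicate 1, the array with the low hypoxia score, and 0.13 without KD1 replicate 2. The highest member was NDUFV3, a subunit of the NADH-oxidising module, at 0.63 (SE 0.28, adjusted p = 0.532), or 0.20 without KD1 replicate 1. The lowest was UQCR10, a small subunit of complex III, at -0.26 (SE 0.16, adjusted p = 0.701). ATP5MJ, a small membrane subunit and the highest complex V member in the mean of both siRNAs (0.25), stood at 9.36 and 9.29 with the scrambled siRNA and 9.59 and 9.61 with KD1. The groups do not overlap, with both KD1 arrays higher, as held for 21.6% of members and 18.1% of all genes. The change was 0.27 (SE 0.12, 95% interval 0.01 to 0.54, adjusted p = 0.513). It was 0.24 (SE 0.12, adjusted p = 0.439) with KD2, in a comparison that shares the same scrambled controls.

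With the second siRNA, KD2, limma likewise called 0 of 74 members, where 0.436% of all genes were called, and 5 members had an unadjusted p under 0.05 (6.76%, against 12.7% of all genes). The median was 0.01 for the members and -0.03 for all genes, with 38 members above 0 (51.4%, against 45.3% of all genes). Scaling without quantiles gave a member median of 0.17 with 61 of 74 above 0, where the median of all genes was 0.04. The members furthest from 0 were NDUFA7 at -0.79 (SE 0.16, 95% interval -1.13 to -0.45, adjusted p = 0.0647) and UQCRQ at -0.68 (SE 0.14, 95% interval -0.98 to -0.37, adjusted p = 0.067). Both were lower on each KD2 array than on each scrambled array, which held for 24.3% of members and 24.3% of all genes. Without KD1 replicate 1 or without KD1 replicate 2 in the fit, UQCRQ passed at the same -0.68 (adjusted p = 0.0337). Upward, NDUFC1, a membrane arm subunit of complex I, stood at 9.66 and 9.45 with the scrambled siRNA, 9.53 and 9.75 with KD1 and 10.08 and 10.10 with KD2. The KD2 arrays were the highest of all 12, and the change was 0.53 (SE 0.13, 95% interval 0.24 to 0.83, adjusted p = 0.123). Both KD2 arrays stood above both scrambled arrays in 14.9% of members and 17.9% of all genes. UQCRB, a complex III subunit, stood at 0.30 (SE 0.12, adjusted p = 0.34). The mean of both siRNAs gave 0 called members, where 0.201% of all genes were called, 3 members with an unadjusted p under 0.05 against 10.5% of all genes, and a median of 0.02 against -0.02 for all genes.

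**Figure D2:**
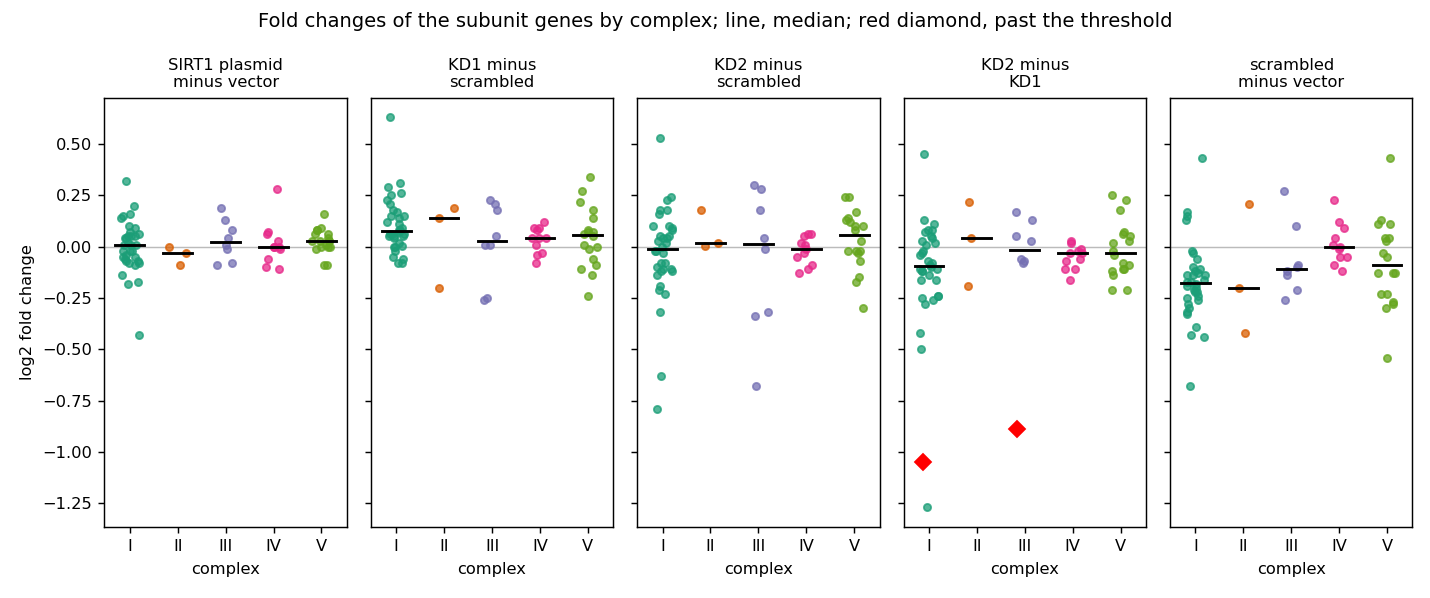
Log2 fold change of each of the 74 tested subunit genes in 5 comparisons, grouped by complex; each point is a gene, black lines are medians of a complex and red diamonds mark genes past the threshold. Only NDUFA7 at -1.05 and UQCRQ at -0.89, KD2 minus KD1, are marked, and in the last panel 30 of 34 complex I genes lie below 0.

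The siRNAs were set against each other because they target the same transcript. Limma called 2 of 74 members, both lower with KD2, where 0.62% of all genes were called and 0.454% were called lower, and 6 members had an unadjusted p under 0.05 against 12.1% of all genes. NDUFA7, an accessory subunit of complex I, stood at 9.97, 9.96 and 9.66 in the vector control, 9.85, 9.82 and 9.95 with the SIRT1 plasmid, 9.79 and 9.51 with the scrambled siRNA, 9.95 and 9.86 with KD1, and 8.72 and 9.00 with KD2. The KD2 arrays were the only ones below 9.51. NDUFA7 fell by 1.05 from KD1 to KD2 (SE 0.16, 95% interval -1.39 to -0.70, limma adjusted p = 0.0196), 2.07-fold lower. UQCRQ, a small subunit of complex III near cytochrome b, stood at 12.79, 12.78 and 12.75 in the vector control, 12.85, 12.82 and 12.90 with the SIRT1 plasmid, 12.53 and 12.49 with the scrambled siRNA, 12.92 and 12.51 with KD1, and 11.92 and 11.75 with KD2. Here too the KD2 arrays were below all others. KD2 lay below KD1 without overlap in 24.3% of members and 20.2% of all genes, and the share below every other array was not counted. UQCRQ fell by 0.89 (SE 0.14, 95% interval -1.19 to -0.58, adjusted p = 0.0248), 1.85-fold lower. SIRT1 RNA itself differed between KD2 and KD1 by 0.18 (SE 0.22, adjusted p = 0.793). Each of these genes has 1 probe on the array, so no second measurement of it exists here.

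Both calls depended on the arrays in the fit. NDUFA7 did not pass without KD1 replicate 1 (-1.0, adjusted p = 0.117), KD1 replicate 2 (-1.09, 0.0711), KD2 replicate 2 (-0.91, 0.0699) or KD2 replicate 3 (-1.19, 0.0749). UQCRQ did not pass without KD1 replicate 1 (-0.68, adjusted p = 0.117) or KD2 replicate 3 (-0.80, 0.169), nor, at an unmoved -0.89, without vector replicate 2 (0.0515), plasmid replicate 1 (0.0521) or plasmid replicate 3 (0.0528). With the 6 siRNA arrays alone in the fit the adjusted p was 0.272 for NDUFA7 and 0.283 for UQCRQ. With the hypoxia score as a covariate both passed, at -1.10 (0.0359) and -0.76 (0.0349). Of 6 tested fibroblast markers, 3 lay above 0 in KD2 minus KD1 with a median of 0.01, from PDGFRA at -0.96, which was called, to COL1A1 at 0.33. Against the scrambled siRNA, COL3A1 was called higher with KD1 (0.83, limma adjusted p = 0.0472) and with KD2 (0.99, 0.0122). In those comparisons 2 of the 6 lay below 0 with KD1 and 3 with KD2. The summed list ran from 3073.5 to 3686.1 with KD1 and from 2859.2 to 3263.5 with KD2, and its part in these values was not tested.

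**Figure D3:**
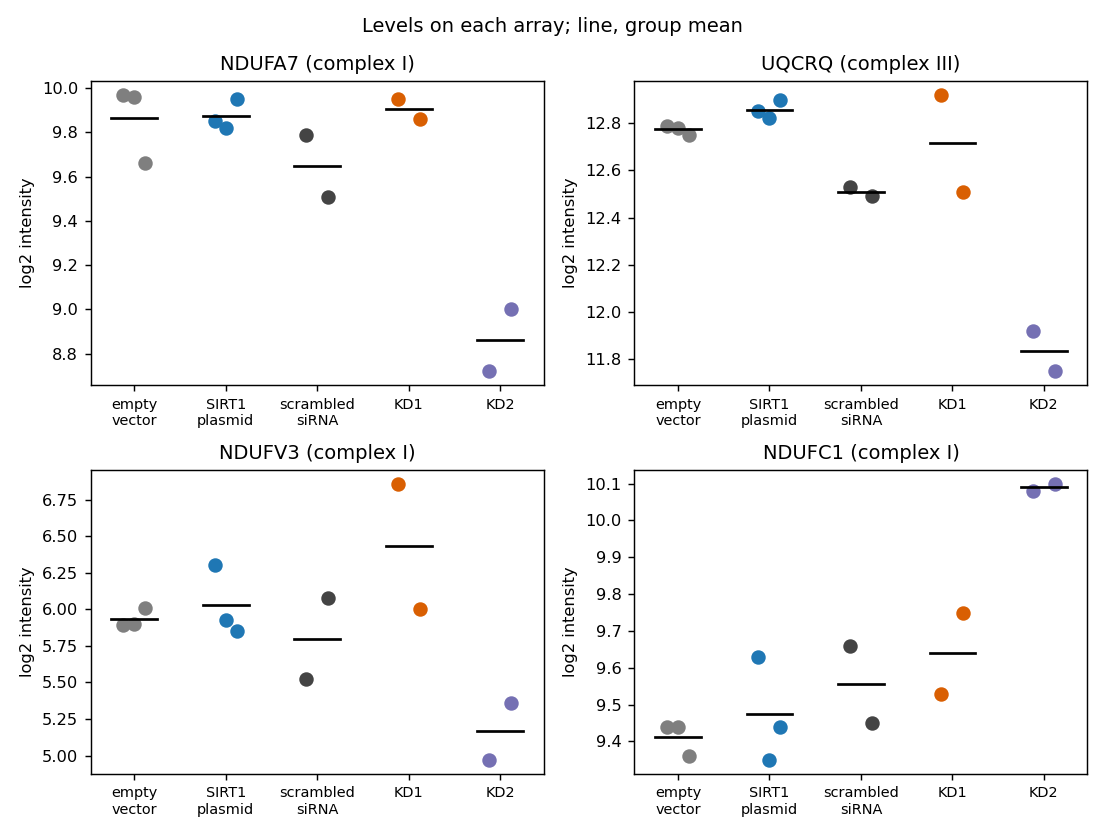
Log2 intensity of NDUFA7, UQCRQ, NDUFV3 and NDUFC1 on every array by group, each panel on its own axis; each point is an array and the line is the group mean. KD2 holds the lowest arrays for NDUFA7 (8.72 and 9.00), UQCRQ (11.92 and 11.75) and NDUFV3 (4.97 and 5.36) and the highest for NDUFC1 (10.08 and 10.10).

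Complex I genes, NDUFA7 included, lay more often below 0 than above in KD2 minus KD1. Their median was -0.10, with 23 of 34 genes below 0, against -0.01 and 52.5% for all genes. The lean was not particular to complex I, as 9 of 11 complex IV genes also lay below 0. In complex V this held for 10 of 18 genes, in complex III for 4 of 8 and in complex II for 1 of 3. The medians of these other complexes were between -0.03 and 0.04. Over the 74 members the median was -0.06, or 0.01 without KD1 replicate 1 and -0.15 without KD1 replicate 2. NDUFV3 was furthest from 0, at 6.86 and 6.00 with KD1 and 4.97 and 5.36 with KD2, a change of -1.27 (SE 0.28, adjusted p = 0.0864). It was not detected on either KD2 array, so the measured difference is at least 1.73-fold against KD1 and at least 1.11-fold against the scrambled siRNA with all arrays in. The fitted change rested on single arrays: KD2 minus KD1 was -0.83 without KD1 replicate 1 (adjusted p = 0.36) and -1.70 without KD1 replicate 2 (0.0575), and KD2 minus scrambled siRNA was -0.36 without scrambled replicate 2 and -0.91 without scrambled replicate 1. For the folds with a floor, each KD2 array was given no less than the dimmest signal it could detect. NDUFS1, the large iron-sulphur core subunit, chosen after its values were seen, stood at -0.50 (SE 0.19, adjusted p = 0.326), or -0.38 without KD1 replicate 1. NDUFC1 stood at 0.45 (SE 0.13, adjusted p = 0.208), or 0.34 without that array.

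The promoters of the called pair are printed because these genes were lower together with KD2 and because the family is known for shared promoter motifs. The sequences are from RefSeq (GRCh38.p14), 300 bases each on the gene's own strand, 5′ to 3′, and capitals mark a motif match. NDUFA7 spans chr19:8321326-8321625 on the minus strand and UQCRQ chr5:132866392-132866691 on the plus strand.
NDUFA7: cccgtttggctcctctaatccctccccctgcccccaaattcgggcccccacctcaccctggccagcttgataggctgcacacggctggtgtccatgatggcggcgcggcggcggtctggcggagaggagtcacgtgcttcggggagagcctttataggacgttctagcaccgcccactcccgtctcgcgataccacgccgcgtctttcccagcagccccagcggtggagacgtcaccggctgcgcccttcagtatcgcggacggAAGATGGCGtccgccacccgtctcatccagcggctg
UQCRQ: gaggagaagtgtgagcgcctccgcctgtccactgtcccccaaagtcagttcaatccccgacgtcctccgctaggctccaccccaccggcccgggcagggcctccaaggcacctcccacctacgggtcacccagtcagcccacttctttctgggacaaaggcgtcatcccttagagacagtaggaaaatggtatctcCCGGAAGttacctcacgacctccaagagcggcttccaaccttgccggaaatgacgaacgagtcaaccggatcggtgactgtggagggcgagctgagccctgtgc
In the NDUFA7 window, bases 265 to 273 match a YY1 motif (AAGATGGCG), and in the UQCRQ window bases 197 to 203 match an ETS motif of the kind bound by GABP (CCGGAAG). Counted from the gene's start, the NDUFA7 match begins at position 15, past the start, and the UQCRQ match at -54, before it. Neither window holds the NRF1 motif searched, GCGCANGCG.

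Across the family these motifs, searched on both strands in 62 of the 74 tested members with a window of this kind, were frequent. The NRF1 motif was present in 20 of 62 windows (32.3%), against 14.9% of 9210 tested genes and 8.05% of all 27305 promoters. The ETS motif was present in 19 (30.6%), against 19% and 10.7%, and the YY1 motif in 7 (11.3%), against 3.92% and 1.85%. At least 1 of these motifs was present in 37 windows (59.7%), against 33% of tested genes. The windows with the most NRF1 matches were those of SDHA and NDUFB4, with 4 each. A match describes the letters of the window and says nothing of binding in these cells.

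Comparing the control groups shows the level that each experiment starts from. The scrambled siRNA and the vector control differ in delivery, reagent and experiment, which cannot be told apart. Limma called 0 of 74 members, where 5.04% of all genes were called, and 8 members had an unadjusted p under 0.05 (10.8%, against 23.3% of all genes). Yet 55 members (74.3%) lay below 0 against 50.9% of all genes, with a median of -0.13 for the members and -0.01 for all genes. In 29 members (39.2%) both scrambled arrays were below all vector arrays, against 22% of all genes, and in 7 (9.46%) both were above, against 22.1%. The differences were small: 2 members (2.7%) exceeded 0.5 in size, against 12.8% of all genes.

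Complex I carried most of this pattern. Its median was -0.17, with 30 of 34 genes below 0, beside -0.20 for complex II, -0.11 for complex III, -0.09 for complex V and -0.00091 for complex IV. NDUFB2, a membrane arm subunit, stood at 12.41, 12.48 and 12.44 in the vector control and 12.11 and 11.98 with the scrambled siRNA, a change of -0.39 (SE 0.12, 95% interval -0.65 to -0.14, adjusted p = 0.0796). NDUFA12, an accessory subunit of the peripheral arm, stood at 11.74, 11.68 and 11.65 against 11.40 and 11.37, a change of -0.30 (SE 0.10, adjusted p = 0.116). The groups do not overlap in either gene, and both were singled out for their small p after their values were seen. NDUFC2 was furthest below 0 at -0.68 (SE 0.24, adjusted p = 0.121).

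In complex II, the flavoprotein SDHA stood at -0.20 (SE 0.10, adjusted p = 0.285) and the membrane anchors parted, SDHC at -0.42 (SE 0.17, adjusted p = 0.163) and SDHD at 0.21 (SE 0.15, adjusted p = 0.426). In complex III, the core protein UQCRC2 stood at 0.27 (SE 0.13, adjusted p = 0.223) and UQCRQ at -0.26 (SE 0.13, adjusted p = 0.239). In complex IV the members ran from COX4I1 at -0.12 (SE 0.10) to COX7A2L, a factor of respiratory supercomplexes, at 0.23 (SE 0.12, adjusted p = 0.281). COX7A2L stood at 11.84, 11.74 and 11.72 in the vector control and 11.94 and 12.05 with the scrambled siRNA, without overlap.

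Complex V held the member nearest to the threshold in the upward direction. ATP5MK, a small subunit that helps hold ATP synthase dimers together, stood at 7.87, 7.97 and 7.83 in the vector control, 7.85, 7.73 and 8.07 with the SIRT1 plasmid, 8.36 and 8.27 with the scrambled siRNA, 8.17 and 8.23 with KD1, and 8.35 and 8.55 with KD2. All 6 siRNA arrays were above all 6 plasmid arrays, and how many genes share this was not counted. Between the controls alone, 9.46% of members and 22.1% of all genes were higher without overlap. Between the controls the change was 0.43 (SE 0.12, 95% interval 0.15 to 0.70, adjusted p = 0.0759). The lowest member was ATP5MC1 at 11.83, 11.66 and 11.67 against 11.33 and 11.02, a change of -0.54 (SE 0.21, adjusted p = 0.159). The other ring genes stood at 0.11 (ATP5MC2, SE 0.19) and -0.27 (ATP5MC3, SE 0.18). ATP5IF1, the inhibitor of the enzyme rather than a subunit, stood at 0.04 (SE 0.13).

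Beside these values, 21 of the 27 hypoxia genes were called higher with the scrambled siRNA, against 3.78% of all genes. The list's median was 1.58, against -0.01 for all genes, and none of its genes fell. With the hypoxia score as a covariate the members' median between the controls was 0.08 in place of -0.13, and 0 of 11458 genes were called. In that fit ATP5MC1 stood at 0.41, ATP5PF at 0.09 and NDUFC2 at 0.30, each with the sign turned. Because the score separates the plasmid from the siRNA arrays, that fit rests largely on the spread within KD1 and KD2. The summed level of the 9 fibroblast markers was 2294.2 to 2376.5 in the vector control and 3043.5 to 3318.6 with the scrambled siRNA, of which 6 were detected on every array and DCN, THY1 and FAP on none. Their fold changes were mixed, with 3 of 6 tested above 0, a median of 0.10, and a range from LUM at -0.44 to PDGFRB at 0.92. Of these, PDGFRB (limma adjusted p = 0.0304) and COL1A2 at 0.86 (adjusted p = 0.0199) were called higher. The summed level of the leukocyte markers was 859.8 to 901.7 against 1216.9 to 1301.2, with PTPRC, CD3E, CD3D, LAPTM5 and TYROBP detected on no array. Among the 3 tested leukocyte markers the median was 0.04, and CD68 was highest at 1.06 and was called (limma adjusted p = 0.015). Of 9 tested epithelial markers 1 was called, KRT18, which fell by 0.99 (adjusted p = 0.0141). The part of the marker lists in the subunit values was not tested.

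Where a gene has several probes, they show how far 1 probe speaks for its transcript. A further 22 passing probes belonged to 20 members. Between the controls, 20 of 22 had the sign of the probe used for the gene, and none differed from it by over 0.5. For KD1 and for KD2 against the scrambled siRNA it was 11 of 22 each, with 3 probes differing by over 0.5. SDHA stood at 0.0031 with KD2 on the probe used (SE 0.11) and at -0.38 on its second probe (SE 0.14, adjusted p = 0.309 over 19263 probes), which was also at -0.38 with KD1. UQCR10 stood at -0.34 with KD2 on the probe used (SE 0.16) and at 0.15 and 0.38 on its others (SE 0.15 and 0.13). NDUFV3 stood at -1.27, KD2 minus KD1, on the probe used and at 0.33 (SE 0.26) on its second probe, which was detected on 4 arrays. The mean of both NDUFV3 probes stood at -0.47 (adjusted p = 0.33).

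UQCRH and ATP5MC1 were singled out after the values of their second probes were seen. UQCRH encodes the hinge protein of complex III, and UQCRHL is its near-identical retrocopy, so their probes may share signal. The second UQCRH probe stood at 10.03 and 10.18 with the scrambled siRNA, 10.24 and 10.64 with KD1, and 11.26 and 10.96 with KD2, its highest arrays of all 12. How many probes were highest on the KD2 arrays was not counted. The change with KD2 was 1.00 (SE 0.22, 2.01-fold, adjusted p = 0.105 over all probes), against 0.04 (SE 0.10) on the probe used and 0.28 (SE 0.15) for UQCRHL. The second ATP5MC1 probe stood at 9.77, 9.33 and 9.42 in the vector control and 8.63 and 8.60 with the scrambled siRNA. It fell by 0.89 (SE 0.18, 1.85-fold, adjusted p = 0.0342 over all probes), the single member probe called between the controls, where 2.46% of all probes were called.

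**Figure D4:**
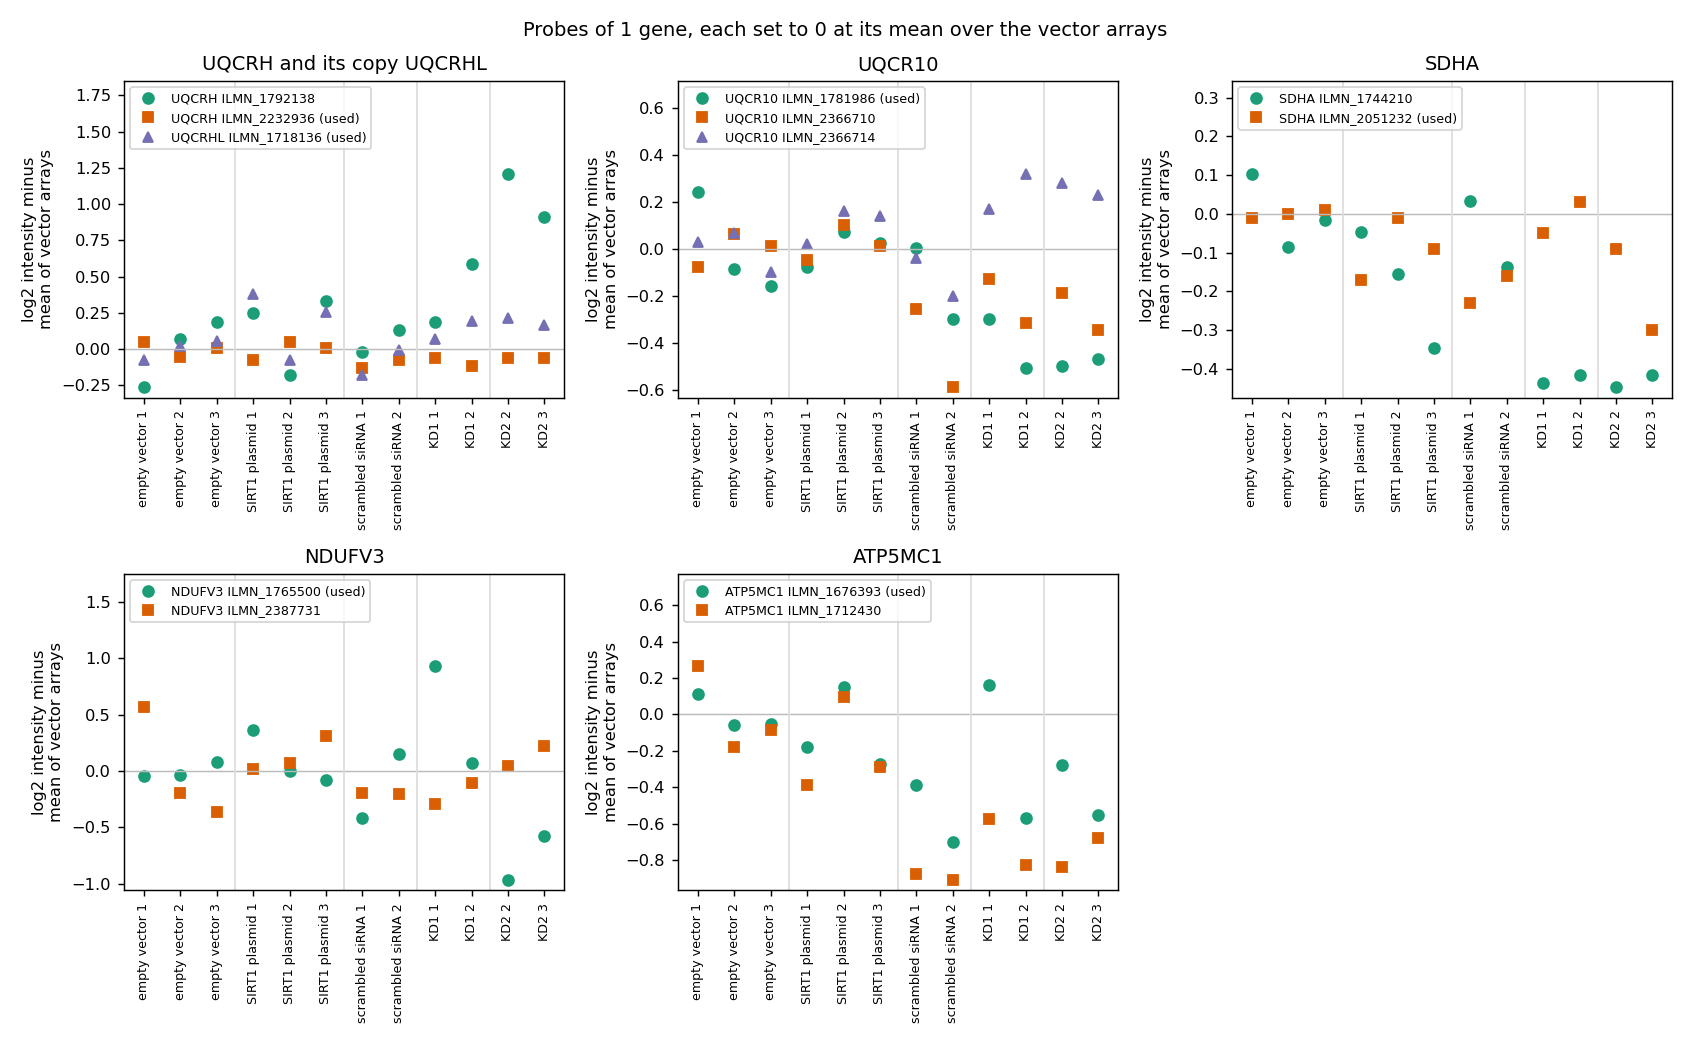
Log2 intensity of each detected probe of UQCRH with UQCRHL, UQCR10, SDHA, NDUFV3 and ATP5MC1 on every array, minus the probe's own mean over the 3 vector arrays; the probe used for the gene is marked in the legend. A UQCRH probe reaches its highest values on the KD2 arrays while the probe used stays within 0.18 over all arrays, and both ATP5MC1 probes are lower with the scrambled siRNA than in the vector control.

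Other genes of the pathway are given by list, and no test compared the lists with the subunits. The median of all genes was 0.01 with the plasmid, -0.01 with KD1, -0.03 with KD2 and -0.01 between the controls. Of 55 tested assembly factors, 0 passed with the SIRT1 plasmid, with KD1 or with KD2, and the medians were -0.0018, 0.08 and -0.02. Their score was 0.05 on KD1 replicate 1 and -0.06 on replicate 2, beside -0.03 and -0.09 with the scrambled siRNA. Between the controls 2 of 55 passed, both lower with the scrambled siRNA, where 1.27% of all genes were called lower. They were BCS1L, the chaperone that inserts the Rieske protein into complex III, which fell by 0.55 (SE 0.12, adjusted p = 0.0352), and NDUFAF1, a complex I assembly factor, which fell by 0.49 (adjusted p = 0.0429). The assembly factors' median was -0.10 there, with 40 of 55 below 0, against 50.9% of all genes. Without scrambled siRNA replicate 1 limma called no gene between the controls, these included. Between the siRNAs the complex V assembly factor TMEM70 stood at -0.93 and the complex I assembly factor TIMMDC1 at 0.40, with 0 of 55 past the threshold (smallest adjusted p = 0.0811).

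The 18 tested electron carriers and ubiquinone synthesis genes gave 0 calls in any comparison. With KD1, 15 of 18 lay above 0 with a median of 0.09, against 49.1% of all genes above 0. The list's score was 0.06 on KD1 replicate 1 and -0.05 on replicate 2, beside -0.06 and -0.10 with the scrambled siRNA. Between the controls their median was -0.03, from COQ7 at -0.49 to COQ8A at 0.26. The 16 tested tricarboxylic acid cycle genes, which feed the chain with NADH and succinate, also gave 0 calls, with medians of 0.05 with the plasmid, -0.10 with KD1, 0.05 with KD2 and -0.07 between the controls. DLAT, a pyruvate dehydrogenase component, was their highest member with KD1 (0.42) and KD2 (0.32). Of 5 tested carriers of adenine nucleotides, phosphate and the outer membrane, 0 were called. All 5 lay below 0 with KD1, from SLC25A5 at -0.22 to SLC25A3 at -0.01, against 50.9% of all genes. Their score was -0.10 on KD1 replicate 1 and -0.00088 on replicate 2, beside 0.06 and 0.07 with the scrambled siRNA. With KD2, 3 of 5 lay above 0, against 45.3% of all genes. No mitochondrially encoded subunit was tested, so the balance between nuclear and mitochondrial subunits was not analysed here.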

How the data were processed

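RNA of 12 Caco-2 samples was read on Illumina bead arrays. Labelled cRNA was made with a biotin kit, per the labels' protocols, and arrays were read with GenomeStudio 2010.1, per the submitters' processing notes. The deposited raw table gives the intensity of 47323 probes on each array and, beside it, the authors' detection p-value in the form 1 minus p. A separate deposited table gives the authors' log2 values, which were used as an alternative. No source used here describes how they were normalised.

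Intensities of 47231 probes were background-corrected and quantile-normalised with neqc (limma 3.58.1, R 4.3.3, offset 16). A probe passed if 2 or more arrays detected it at p below 0.01 (19263 did), and the probe with the highest mean stood for each of 11458 genes. Gene symbols are those of the platform annotation. All 12 arrays entered 1 limma fit with 5 group means (7 residual degrees of freedom, prior 3.63). The tests are two-sided and p-values were adjusted over all genes by Benjamini and Hochberg. The median SE of a log2 fold change was 0.14 for the plasmid and 0.18 for KD1, and the number of arrays limits this precision. The script was tested on simulated data.

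Members and lists were chosen with earlier results of these data known. Members named are those past the threshold, the highest and lowest of each complex and comparison, isoform families, SDH genes, genes whose probes disagree and genes detected on some arrays; others are marked where named. In the fit reported, medians of the members and of the pathway lists stand beside those of all genes, and no list was tested. The test of each probe on its own was chosen after seeing the data. Alternatives were the authors' log2 values, scaling without quantiles, other filters, the mean of probes, a trended robust fit, fewer arrays, the replicate block and a hypoxia covariate.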

Additional observations from a re-analysis of the deposited data

Results flagged for a closer look

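NDUFA7 and UQCRQ differed between the siRNAs by the test of the difference itself, although both siRNAs target SIRT1. NDUFA7 stood at -1.05, KD2 minus KD1 (SE 0.16, limma adjusted p = 0.0196), lower on 2 of 2 KD2 arrays than on any other array. UQCRQ stood at -0.89 (SE 0.14, limma adjusted p = 0.0248), again with both KD2 arrays below the other 10. How many genes share this was not counted, but KD2 lay below KD1 without overlap in 24.3% of members and 20.2% of all genes. In neither gene did KD1 differ detectably from the scrambled siRNA, at 0.26 (95% interval -0.09 to 0.60, adjusted p = 0.685) for NDUFA7 and 0.21 (95% interval -0.10 to 0.52, adjusted p = 0.712) for UQCRQ. Neither call held with the siRNA arrays alone in the fit (adjusted p = 0.272 and 0.283), with the replicate block (0.449 and 0.546) or without KD1 replicate 1 (0.117 for each).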

How the results depend on the processing

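The arrays, 2 or 3 per group, set the limits. KD2 minus scrambled siRNA gave 0 called members in the fit reported, but 3 (NDUFA7, NDUFC1 and UQCRQ) with the authors' normalised values and with the trended robust fit, 2 (NDUFA7 and UQCRQ) with the hypoxia covariate and 1 (NDUFA7) with detection on at least 6 arrays. Scrambled siRNA minus vector gave 2 (NDUFA12 and NDUFB2) with the authors' values, 3 (those and ATP5PF) with the trended robust fit and 1 (ATP5MC1) with the mean of probes. KD2 minus KD1 gave 0 with the siRNA arrays alone. The cause was not tested. Leaving out single arrays gave 0 to 2 called members for KD2 minus KD1, 0 to 1 for KD2 and 0 in the others.

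Scaling without quantiles gave member medians of -0.05 (plasmid), 0.17 (KD1), 0.17 (KD2), 0.15 (mean of both siRNAs) and -0.21 (controls), with all-gene medians of -0.01, 0.04, 0.04, 0.03 and -0.05, so the sign of the plasmid median turned. The hypoxia covariate gave -0.01 for KD2 minus KD1 and 0.08 for the controls, where ATP5MC1 (0.41), ATP5PF (0.09) and NDUFC2 (0.30) turned sign. Leaving out single arrays gave medians from 0.0023 to 0.02 (plasmid), -0.01 to 0.13 (KD1), -0.03 to 0.04 (KD2), -0.0018 to 0.07 (mean), -0.15 to 0.01 (KD2 minus KD1) and -0.13 to -0.10 (controls).

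With the replicate number as a block, KD2 minus KD1 gave 0 called members, and medians were 0.07 for KD2, 0.07 for the mean and 0.03 for KD2 minus KD1. Whether equal numbers mark paired samples is not settled. Deviations of same-numbered samples from their group means correlated at -0.164, -0.11 and 0.0327 (plasmid), -0.0211 (scrambled and KD1), 0.145 (scrambled and KD2) and -0.359 (KD1 and KD2). Deviations within a group sum to 0, and in an siRNA group of 2 arrays they mirror each other, so these correlations cannot decide it. The block between the controls could not be fitted.

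Counts over all genes moved further. KD1 gave 20 calls, 75 with the authors' values, 77 trended, 9 without quantiles, 3 without a filter, 0 on siRNA arrays alone and 3 with the block. KD2 gave 50, against 167, 171, 77 with the stricter filter, 128 with the covariate, 1 on siRNA arrays and 0 with the block. The mean gave 23, against 91, 72, 41 with the covariate, 1 and 2. KD2 minus KD1 gave 71, against 162, 162, 0 and 0. The controls gave 578, against 1057, 1011, 372 without quantiles, 297 without a filter and 0 with the covariate. Leaving out single arrays gave 0 to 1 (plasmid), 0 to 21 (KD1, 0 without scrambled replicate 1), 2 to 60 (KD2), 2 to 36 (mean), 0 to 67 (KD2 minus KD1, 0 without KD2 replicate 3) and 0 to 765 (controls).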
